A study of Mus musculus with 2 samples.

Results

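BMP, TGF-beta and activin signalling was described here through 59 genes, chosen by a fixed list of symbols and found by stable identifier in both gene tables, which hold 43346 mouse genes. The genes cover 25 ligand genes, 7 type I and 4 type II receptors, 2 co-receptors, 8 Smads, 9 extracellular antagonists and modulators, 3 latent TGF-beta binding proteins and the protease Bmp1. All 59 had a row in both tables. The tissue was kidney of healthy B6NCrl mouse embryos at 16.5 days, with kidneys of males and females pooled, and the measurement was RNA-seq of total RNA over 200 nt. There was 1 group with no treatment and 2 libraries, called biological replicates 1 and 2 in the labels. The pool of replicate 2 came from 41 embryos, and no source used here gives that number for replicate 1. Each library started from 10 ng of RNA, and spike-in RNAs were added to both.

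Ligands of this family are secreted dimers cut from longer precursors. A ligand brings a type II receptor kinase together with a type I receptor kinase, and the type I kinase phosphorylates receptor-activated Smads: Smad1, Smad5 and Smad9 mainly below BMP receptors, Smad2 and Smad3 mainly below TGF-beta and activin receptors. These join Smad4 and act on genes in the nucleus, while Smad6 and Smad7 inhibit the pathway and secreted antagonists hold ligands away from receptors. In the embryonic kidney Bmp7 is known for keeping nephron progenitors alive, Bmp4 for the placement of the ureteric bud and the smooth muscle around the ureter, and Grem1 for lowering BMP activity so that the bud can grow out.

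The libraries held 35255968 and 38706236 expected counts, and a gene with 10 counts over 2000 nt of effective length stood at 0.218 TPM in replicate 1 and 0.201 TPM in replicate 2. TPM scales a gene's reads to its length and to the same sum in each library, so levels of different genes are compared in TPM. All 8 nephron lineage markers, all 5 of the ureteric epithelium, all 4 of renal stroma and all 4 of endothelium were at 1 TPM or more in both libraries, with Slc34a1 at 218 and 240 TPM and Tcf21 at 291 and 311 TPM. With 2 libraries of 1 group the smallest two-sided p that a sign test could give is 0.5. No level or difference was tested, and a mean ± SD below is over n = 2. In a bulk sample fewer cells of a type and less RNA per cell cannot be told apart.

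Sequences are shown for the genes whose transcripts carry a result: the exon that separates receptor forms of Tgfbr2, the exon that separates precursor forms of Tgfb2, and the bases before the alternative starts of Ltbp1, each 5′ to 3′ on the gene's strand. The exons come from GENCODE M21 on GRCm38, and the promoters from RefSeq on GRCm38.p6.
Tgfbr2 exon, chr9:116158271-116158345, minus strand: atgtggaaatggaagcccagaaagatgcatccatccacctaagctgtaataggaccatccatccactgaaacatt
Tgfb2 exon, chr1:186690721-186690804, minus strand: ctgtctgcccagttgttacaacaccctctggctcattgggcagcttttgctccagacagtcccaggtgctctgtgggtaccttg
Ltbp1 before the distal start, chr17:75005279-75005528, plus strand: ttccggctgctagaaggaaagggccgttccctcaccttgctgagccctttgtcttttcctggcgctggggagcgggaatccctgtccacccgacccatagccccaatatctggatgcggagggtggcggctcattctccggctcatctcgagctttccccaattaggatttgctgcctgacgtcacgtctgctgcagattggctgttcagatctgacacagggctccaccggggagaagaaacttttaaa
Ltbp1 before the inner start, chr17:75178531-75178780, plus strand: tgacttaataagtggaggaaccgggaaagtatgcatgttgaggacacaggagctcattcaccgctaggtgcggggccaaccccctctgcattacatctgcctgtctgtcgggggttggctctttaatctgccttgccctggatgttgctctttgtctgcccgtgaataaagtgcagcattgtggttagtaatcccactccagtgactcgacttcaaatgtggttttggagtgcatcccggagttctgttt

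Of the 59 genes, 43 (72.9%) were at 1 TPM or more in both libraries, beside 62.2% of all protein-coding genes. The share differed by role. Ligands reached it in 12 of 25 cases, type I receptors in 6 of 7, type II receptors in 4 of 4, co-receptors in 2 of 2, Smads in 8 of 8, antagonists in 7 of 9 and latent binding proteins in 3 of 3. The median level of the ligand genes was 0.96 TPM in replicate 1 and 1.63 TPM in replicate 2, that of the type I and II receptors 10.7 ± 0.0566 TPM, and that of the Smads 19.4 ± 1.08 TPM. On the log2(TPM + 0.1) scale the receptor median lay 2.996 ± 0.49 above the ligand median, and the Smad median 0.82 ± 0.09 above the receptor median. Both differences had the same direction in both libraries. The first rests largely on ligand genes near 0: over the 12 ligands and 10 receptors at 1 TPM or more, the medians were 7.75 and 11.96 TPM. The medians describe these sets of genes, beside a median of 5.43 and 5.46 TPM over all protein-coding genes.

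**Figure D1:**
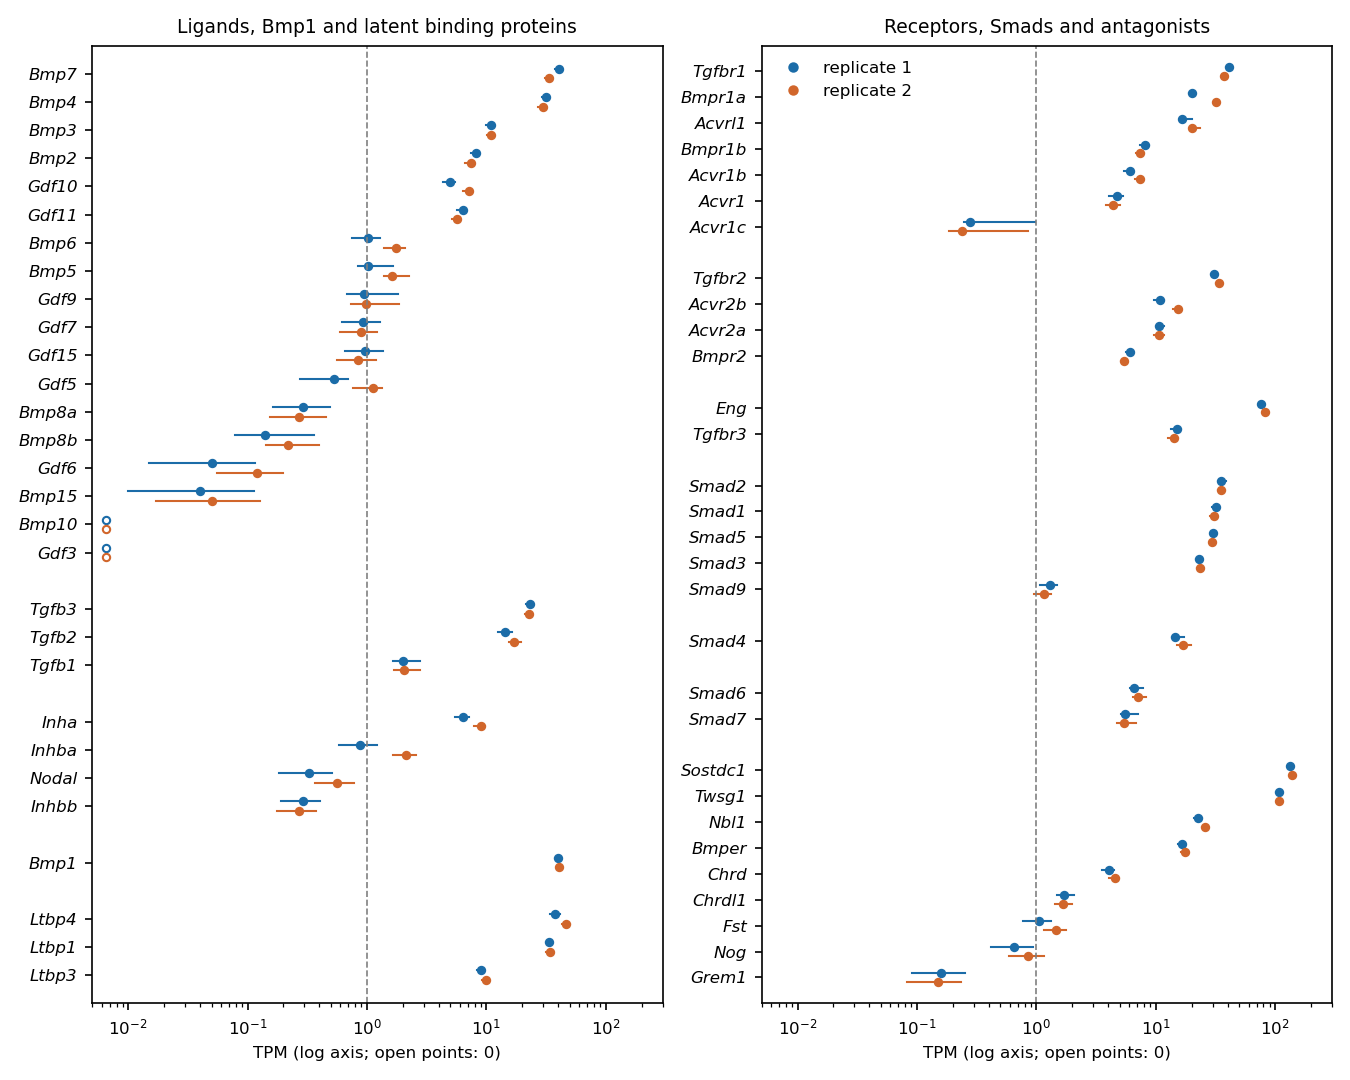
TPM of the 59 genes on a log axis in replicate 1 (blue) and replicate 2 (orange), grouped by role and ordered by mean; bars are the authors' lower and upper TPM bounds, open points at the left edge are genes at 0, and the dashed line is 1 TPM. All Smads and type II receptors lie to the right of the line, while 13 of 25 ligand genes had a library on its left. A point can lie outside its bar, as for Twsg1.

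Among the BMP and GDF ligands, Bmp7 and Bmp4 stood first. Bmp7 was at 40.65 TPM in replicate 1 and 33.35 TPM in replicate 2, and Bmp4 at 31.69 and 29.93 TPM. Their values did not overlap, but over protein-coding transcripts alone, at 32.31 and 26.53 TPM for Bmp7 and 28.67 and 25.27 TPM for Bmp4, they did. Together they held 66.5% of the summed TPM of the 18 BMP and GDF genes in replicate 1 and 61.8% in replicate 2. Bmp3, a ligand known to oppose other BMPs, followed at 10.97 and 11.05 TPM. Bmp2 was at 8.22 and 7.38 TPM. The next pair, Gdf10 (4.97 and 7.13 TPM) and Gdf11 (6.37 and 5.70 TPM), changed places between the libraries. Gdf11 is known for its part in the outgrowth of the ureteric bud.

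Bmp6, known outside the kidney for iron control, was near the threshold at 1.02 and 1.75 TPM. Bmp5 was at 1.02 and 1.63 TPM and overlapped it. Bmp6 shares 224 nt of exon with the more abundant Txndc5 (265 and 282 TPM) on the opposite strand, so its low level is uncertain. The other 10 BMP and GDF genes were below 1 TPM in at least 1 library. Gdf7, Gdf9 and Gdf15 lay just under the line, between 0.85 and 0.99 TPM in every library. Gdf5, a ligand of joints and cartilage, was at 0.53 and 1.12 TPM. Bmp8a, Bmp8b, Gdf6 and Bmp15 were between 0.04 and 0.29 TPM. Bmp10, a ligand of the heart, and Gdf3 had no count in either library. For Bmp10 a count of 0 allows up to 0.107 TPM in replicate 1 and 0.0990 TPM in replicate 2, taking 3 counts as the limit, which covers counting error only.

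Tgfb3 was the highest of the TGF-beta ligands at 23.05 and 22.64 TPM, or 58.6% and 54.0% of their summed TPM. Tgfb2 followed at 14.29 and 17.23 TPM and Tgfb1 at 2.00 and 2.06 TPM. The 3 genes kept this order in both libraries without overlap. Much of the Tgfb2 level, however, was assigned to transcripts that code for no protein. Its leading transcript was Tgfb2-205, an 898 nt retained intron, with 36.7% of the gene's transcripts in replicate 1 and 50.6% in replicate 2. Because that transcript is short, it held a smaller part of the gene's counts, 11.6% and 17.5%. Protein-coding Tgfb2 transcripts summed to 6.76 and 6.78 TPM, which is 47.3% and 39.4% of the gene level. Summed over protein-coding transcripts alone, Tgfb2 lay below Bmp2 and near Inha and Gdf11. The lower and upper bounds of Tgfb2-205, 2.70 to 6.99 TPM and 5.98 to 10.6 TPM, overlapped.

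The Tgfb2 exon printed above adds 84 nt, or 28 codons, to the coding part, giving precursors of 442 and 414 codons. Tgfb2-206 carries it and stood at 2.05 and 1.33 TPM. Tgfb2-201 lacks it and stood at 4.71 and 5.45 TPM. The form without the exon was the higher one in both libraries, with 33.0% and 31.7% of the gene's transcripts against 14.4% and 7.70%.

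Of the activin, inhibin and nodal genes, Inha alone reached 1 TPM in both libraries, at 6.43 and 8.98 TPM. Inha encodes the alpha subunit of inhibin, which pairs with a beta subunit to oppose activin. Inhba, the beta A subunit that forms activin A, was at 0.88 and 2.12 TPM. Inhbb was at 0.29 and 0.27 TPM and Nodal at 0.33 and 0.56 TPM. The inhibin alpha subunit was therefore above the sum of both beta subunits in each library.

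The type I receptors were led by Tgfbr1, the kinase of the TGF-beta receptor, at 40.85 and 37.49 TPM. Bmpr1a, a main BMP type I receptor, was second at 20.27 and 32.19 TPM. Acvrl1, which serves endothelial cells, was at 16.74 and 20.32 TPM and overlapped Bmpr1a. Tgfbr1 and Bmpr1a together held 63.0% and 63.7% of the summed TPM of the 7 genes. Bmpr1b (8.10 and 7.39 TPM) and the activin receptor Acvr1b (6.09 and 7.39 TPM) met at the same value, and Acvr1 followed at 4.73 and 4.39 TPM. Acvr1c, a receptor for nodal and related ligands, was the only one under 1 TPM, at 0.28 and 0.24 TPM. It lies 30.75 kb from Acvr1 on chromosome 2, on the same strand, and Acvrl1 lies 28.73 kb from Acvr1b on chromosome 15, so neighbours of the same family differed in level.

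All 4 type II receptors were above 5 TPM in both libraries. Tgfbr2 was highest at 31.05 and 33.87 TPM. Acvr2b was at 10.90 and 15.53 TPM and Acvr2a at 10.66 and 10.74 TPM. Bmpr2, which binds BMPs, was lowest at 6.04 and 5.48 TPM. None of these 4 overlapped its neighbour in the order, although the gap between 10.90 TPM for Acvr2b and 10.74 TPM for Acvr2a was within the authors' bounds of Acvr2b in replicate 1, 9.63 to 11.7 TPM. Acvr2a shares 446 nt of exon with Orc4 on the opposite strand, at 79.03 and 76.9 TPM, and no source used here says whether counting used the strand, so reads of the pair may not have been told apart.

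Tgfbr2 was expressed in 2 forms. The exon printed above adds 75 nt, or 25 codons, and the receptors have 592 codons with it and 567 without it in GENCODE M21. The deposited lengths of the transcripts also differ by 75 nt. Tgfbr2-201, without the exon, held 77.3% of the gene's transcripts in replicate 1 and 71.6% in replicate 2. Tgfbr2-202, with it, held 22.7% and 28.4%. The shorter receptor form was the higher one in both libraries, and its level was 24.0 and 24.3 TPM against 7.06 and 9.61 TPM. This pair was chosen after its values were seen.

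The co-receptor Eng, endoglin, which works with Acvrl1 in endothelial cells, was at 76.70 and 82.92 TPM, the highest of the receptor genes. Tgfbr3, which presents TGF-beta2 and inhibin, was at 14.99 and 14.31 TPM. The endothelial markers Emcn and Pecam1 were at 83.4 and 82.3 TPM and at 61.8 and 62.9 TPM. Which cells held Eng was not measured in whole tissue.

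All 8 Smads were at 1 TPM or more. Smad2 led at 35.51 and 35.60 TPM, ahead of Smad1 at 31.93 and 30.65 TPM and Smad5 at 30.31 and 29.85 TPM. Smad3 was at 22.85 and 23.36 TPM, and the shared partner Smad4 at 14.41 and 16.96 TPM. Smad9 was far below its relatives at 1.31 and 1.16 TPM. Each of the 7 neighbouring pairs in the order of the Smads was apart, most narrowly Smad1 and Smad5, where the lower Smad1 value was 30.65 TPM and the higher Smad5 value 30.31 TPM. The authors' bounds of these overlapped in replicate 1 (29.9 to 32.5 TPM and 29.01 to 31.1 TPM), and their posterior means (31.2 and 30.01 TPM, and 30.02 and 29.6 TPM) overlapped too, so their order is not settled. Summed TPM of Smad1, Smad5 and Smad9 was 63.55 and 61.66, and that of Smad2 and Smad3 was 58.36 and 58.96. The ratio of the first sum to the second was 1.09 and 1.05. This is a ratio of Smad RNA levels, and the activity of either branch was not measured. The inhibitory Smad6 and Smad7 were at 6.60 and 7.05 TPM and at 5.54 and 5.47 TPM. Their bounds overlapped in replicate 1 (6.06 to 7.90 TPM and 5.145 to 7.15 TPM) and in replicate 2 (6.51 to 8.25 TPM and 4.72 to 6.84 TPM).

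Smad2-205 held 80.9% and 83.3% of Smad2 transcripts and Smad2-203 held 12.2% and 13.5%. Bmpr1a-201 held 96.0% and 93.6% of Bmpr1a. Bmp1 and Fst each had 1 transcript in the tables. Smad6 is printed because its start site carries the palindrome of the Smad binding element, GTCTAGAC (both strands read alike), in capitals; it spans the start, with its last 4 bases after it.
Smad6, chr9:64022056-64022309, minus strand: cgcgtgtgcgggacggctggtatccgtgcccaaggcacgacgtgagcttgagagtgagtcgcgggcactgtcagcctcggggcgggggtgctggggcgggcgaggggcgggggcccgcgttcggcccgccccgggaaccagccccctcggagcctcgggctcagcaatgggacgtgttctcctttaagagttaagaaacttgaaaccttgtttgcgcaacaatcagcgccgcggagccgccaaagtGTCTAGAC
Among 27025 promoter windows of 300 bases, the first of each gene, 57 (0.211%) held these letters. Of the 41 genes of the 59 with a window, Smad6 alone held them. For these genes every window was read, so the 2 counts are not like for like. A match is a description of letters and no measure of binding, and Smad6 was chosen for it after the windows were read.

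The antagonists were dominated by Sostdc1 and Twsg1. Sostdc1, a secreted BMP antagonist known from the distal kidney tubule, was at 134.49 and 139.00 TPM. Twsg1, which binds BMPs together with chordin, was at 107.04 and 107.40 TPM. They were the highest of the 59 genes, and 5.38% and 7.21% of protein-coding genes had a higher mean. Together they held 83.7% and 82.4% of the summed TPM of the 9 antagonists. Nbl1, of the gremlin and cerberus family, was at 22.76 and 26.15 TPM, Bmper at 16.53 and 17.59 TPM, and chordin, Chrd, at 4.08 and 4.57 TPM. Chrdl1 was at 1.71 and 1.68 TPM and follistatin, Fst, the binder of activin, at 1.05 and 1.47 TPM. None of these 7 overlapped its neighbour in the order, although the authors' bounds of Chrdl1 and Fst did in replicate 2 (1.43 to 2.00 TPM and 1.15 to 1.77 TPM).

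Nog and Grem1 did not reach 1 TPM. Nog was at 0.65 and 0.85 TPM. Grem1 was at 0.16 and 0.15 TPM, with 15 counts in each library, so it was measured and low. Grem1 was therefore below Bmp4 and Bmp7, the ligands that it binds, in both libraries. Summed TPM of the 9 antagonists and modulators was 288 and 299, beside 156 and 156 for the 25 ligand genes, a ratio of 1.85 and 1.91. The ratio rests on Sostdc1 and Twsg1, which alone summed to 242 and 246 TPM.

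Bmp1, a tolloid protease that cuts chordin and latent binding proteins, was at 39.65 and 41.04 TPM. The latent binding proteins, which hold TGF-beta in the matrix, were at 37.58 and 46.72 TPM for Ltbp4, 33.40 and 33.86 TPM for Ltbp1 and 9.08 and 9.96 TPM for Ltbp3. The 3 genes did not overlap. Over protein-coding transcripts alone Ltbp4 (26.16 and 30.92 TPM) and Ltbp1 (28.41 and 27.53 TPM) did.

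Ltbp1 was made from separate starts. Ltbp1-201 begins at the distal start and encodes 1712 codons; Ltbp1-202 begins 173.34 kb further in, and encodes 1341 codons. The 250 bases before each were printed above, as windows of RefSeq starts that lie 39 bp and 130 bp from the GENCODE starts. The distal window held 12 CG pairs and the inner one 7. Ltbp1-201 held 49.3% of the gene's transcripts in replicate 1 and 40.1% in replicate 2. Ltbp1-202 held 32.4% and 40.2%. The longer form led in replicate 1, and the 2 forms were level in replicate 2, at 13.58 and 13.59 TPM, or 39.77% and 39.2% by posterior mean. The authors' bounds of Ltbp1-201 did not overlap between the libraries (14.8 to 17.1 TPM and 12.1 to 14.4 TPM), and those of Ltbp1-202 did (9.13 to 12.1 TPM and 11.5 to 14.6 TPM).

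The leading Ltbp4 transcript, Ltbp4-205, held 59.1% and 58.4%. It starts 4.03 kb inside Ltbp4-201, which held 9.43% and 7.60%. Ltbp4-208, a retained intron of 550 nt, held 25.7% and 32.0% of the transcripts with 3.17% and 4.14% of the counts. Acvrl1-205 held 52.7% and 64.5% of Acvrl1. These, with Tgfb2 and Ltbp1, were the 4 of 43 genes whose leading transcript had a mean share under 60%. Of the 43 genes, 15 had a single transcript in the tables, which fixes its share at 100%, and in 12 of the other 28 the leading transcript held 90% or more. In 34 of the 43, protein-coding transcripts made up 95% or more of the level. The 4 genes under 80% were Bmp7 (79.5% and 79.6%), Tgfb2, Tgfbr3 (71.8% and 80.9%) and Ltbp4 (69.6% and 66.2%). All 43 remained at 1 TPM or more over protein-coding transcripts alone.

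**Figure D2:**
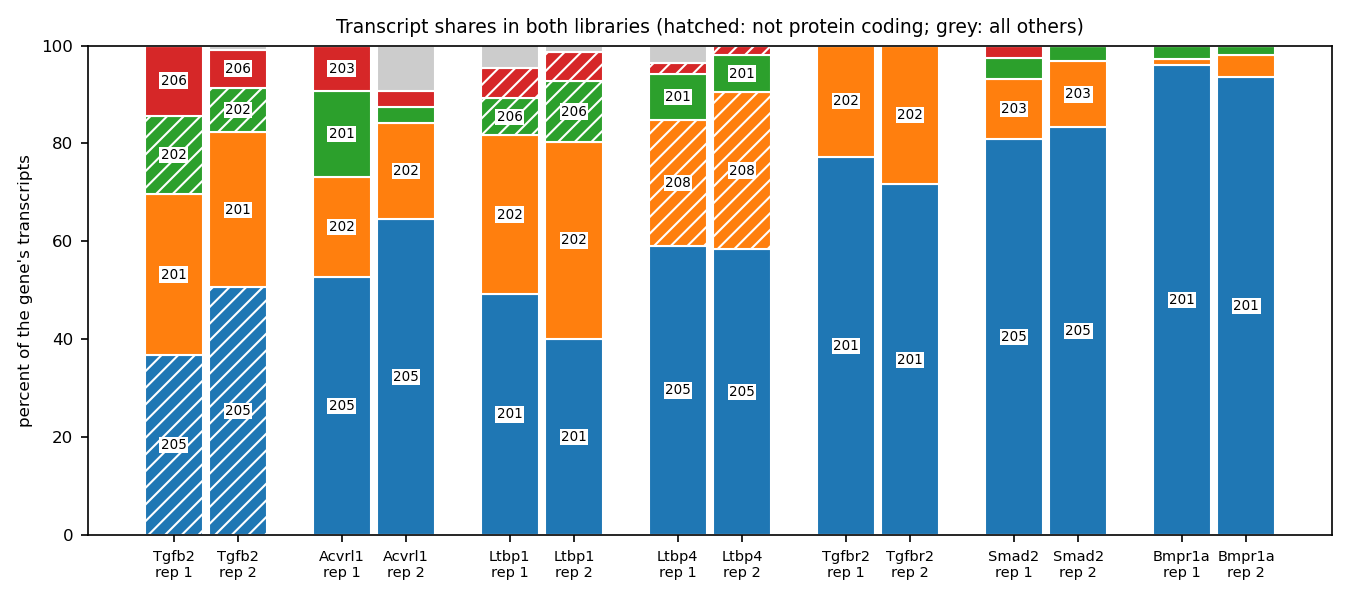
Share of each gene's transcripts (percent, bars sum to 100) for 7 genes in both libraries, with the number of each GENCODE transcript in its bar; hatched bars are transcripts annotated as not protein coding, and grey is all transcripts beyond the 4 with the highest mean. Tgfb2-205 held 36.7% in replicate 1 and 50.6% in replicate 2, and Ltbp1-201 and Ltbp1-202 were level in replicate 2.

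The pools were compared as log2 count ratios of replicate 2 over replicate 1, after TMM scaling, for the 45 of 59 genes whose mean reached 1 CPM, or 1 count in each 1000000. Inhba and Gdf5 entered only through replicate 2: they were at 0.846 and 0.788 CPM in replicate 1, so their difference is a description. Inhba was 2.36-fold higher in replicate 2, with 29 and 77 counts, and Gdf5 2.04-fold higher, with 27 and 62 counts. Of the 43 genes at 1 CPM or more in both libraries, Bmp6, Bmp5 and Bmpr1a were more than 1.5-fold apart, 3 genes beside 4.3% of all genes that met this filter, and 0 were more than 2-fold apart, beside 1.43%. With Inhba and Gdf5 the counts were 5 of 45 over 1.5-fold, beside 5.81% of genes with a mean of 1 CPM, and 2 of 45 over 2-fold, beside 2.32%. All 5 of the 45 were higher in replicate 2, and Inhba and Gdf5 entered only through it. Of all genes with a mean of 1 CPM, 2.06% were over 1.5-fold higher there. Bmp6 had a log2 ratio of 0.76 and Bmp5 of 0.66. The 4 ligands Inhba, Gdf5, Bmp6 and Bmp5 had at most 151 counts in a library. The other 40 genes were within 1.5-fold, and the median size of the log2 ratio over the 45 was 0.14, beside 0.11 over all genes.

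Bmpr1a was the fifth, at a log2 ratio of 0.64 with 2638 and 4477 counts. The authors' bounds, 19.1 to 20.96 TPM in replicate 1 and 30.6 to 33.1 TPM in replicate 2, did not overlap. The BMP receptor genes Bmpr1b and Bmpr2 had ratios of 0.0011 and -0.15. The genes tested next to it on chromosome 14, Mmrn2 and Ldb3, had ratios of 0.17 and -0.0016. Among genes whose starts lie within 500 kb, ratios ran from -1.53 for the pseudogene Rpl23a-ps3 to 0.82 for Anxa8, with Gdf10 at 0.52 and Sncg at -0.31. An antisense gene that shares 290 nt of its exons, Gm17110, had 8.25 and 25.7 counts. The next in size were Gdf10 (0.52), Acvr2b (0.51), Inha (0.48) and Fst (0.47), all higher in replicate 2. Bmp7 was the furthest in the other direction, at -0.28, with bounds of 37.7 to 41.8 TPM and 30.9 to 34.4 TPM.

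**Figure D3:**
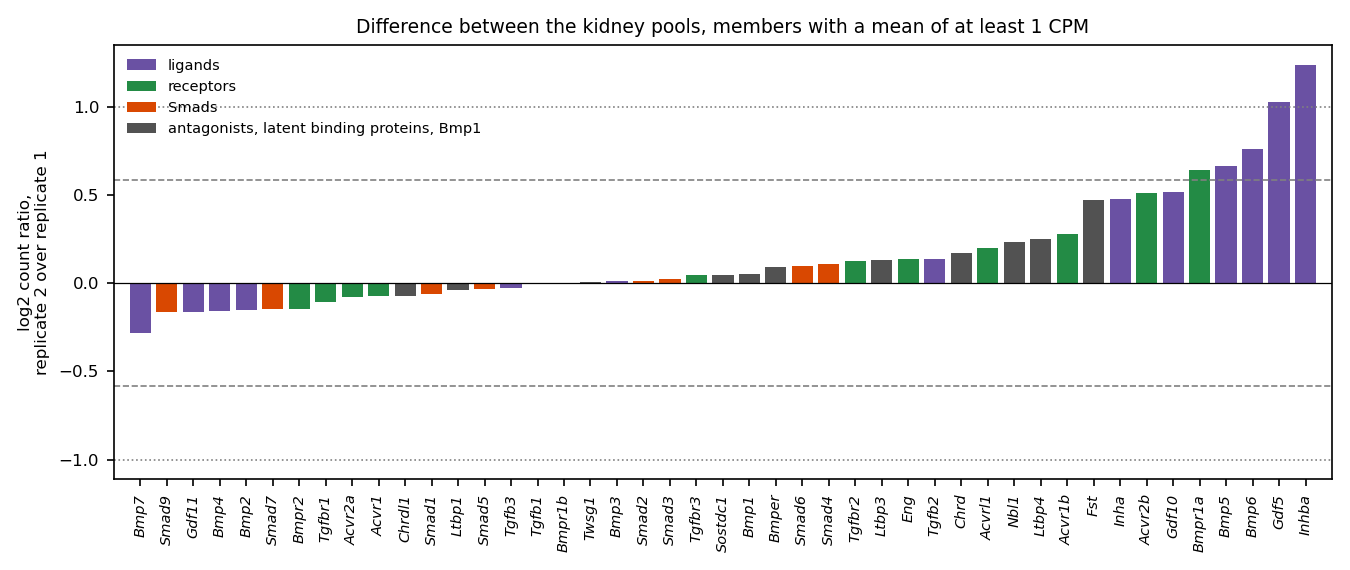
log2 count ratio, replicate 2 over replicate 1, of the 45 genes that entered, coloured by role; dashed lines mark 1.5-fold and dotted lines 2-fold. Inhba and Gdf5, which entered only through replicate 2, pass the upper dotted line, Bmp6, Bmp5 and Bmpr1a pass only the dashed line, and none passes a lower line.

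Markers of smooth muscle and of neighbouring tissues also differed between the pools. The 4 markers listed for ureter smooth muscle were all higher in replicate 2. They summed to 377 TPM in replicate 1 and 726 TPM in replicate 2, with Acta2 at 305 and 564 TPM and Myh11 at 9.47 and 27.24 TPM. Whether this smooth muscle lay in the ureter or within the kidney was not measured. The 4 skeletal muscle markers summed to 75.1 and 165 TPM, led by Acta1 at 48.3 and 139 TPM, while Mylpf was at 22.4 and 21.2 TPM and Myod1 at 0.57 and 0.69 TPM. The 5 gonad markers summed to 1.90 and 7.62 TPM, with Insl3, of Leydig cells, at 1.08 and 6.46 TPM Ddx4 at 0.59 and 0.41 TPM, Gata4 at 0.23 and 0.75 TPM and Foxl2 and Dmrt1 listed at 0, so that only Insl3 reached 1 TPM. Of the 7 adrenal markers, Cyp21a1, the highest by mean, differed little, at 31.46 and 35.39 TPM. Cyp11a1 was at 20.6 and 38.5 TPM, Star at 9.90 and 17.23 TPM and Nr5a1 at 1.83 and 3.32 TPM. Lower in replicate 2 were Th, of the medulla, at 11.48 and 5.49 TPM, Dbh at 5.81 and 2.53 TPM and Pnmt at 2.27 and 2.09 TPM. Inhba, Gdf5, Bmp6, Bmp5 and Bmpr1a were higher in replicate 2, as the smooth muscle markers, Insl3, Cyp11a1 and Star were. So were, under 1.5-fold, Gdf10, Acvr2b, Inha and Fst, and in all 29 of the 45 genes, beside 52.5% of all genes. The 4 liver markers summed to 134 and 167 TPM, while Th, Dbh and Pnmt went the other way. The part of these tissues in the differences was not tested. The 8 nephron markers summed to 672 and 639 TPM, and 6 of the 8 were lower in replicate 2, as Bmp7 was, such as Pax2 at 27.25 and 19.99 TPM. Slc34a1 (218 and 240 TPM) and Nphs1 (4.46 and 4.97 TPM) were higher there, and the part of these markers in the Bmp7 difference was not tested. The endothelial markers summed to 216 and 215 TPM. The ureteric markers summed to 360 and 387 TPM, and their members went both ways. Aqp2 (89.59 and 133.6 TPM) and Wnt11 (26.06 and 27.43 TPM) were higher in replicate 2. Calb1 (139 and 131 TPM), Gata3 (96.11 and 86.28 TPM) and Ret (9.42 and 8.59 TPM) were lower there.

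**Figure D4:**
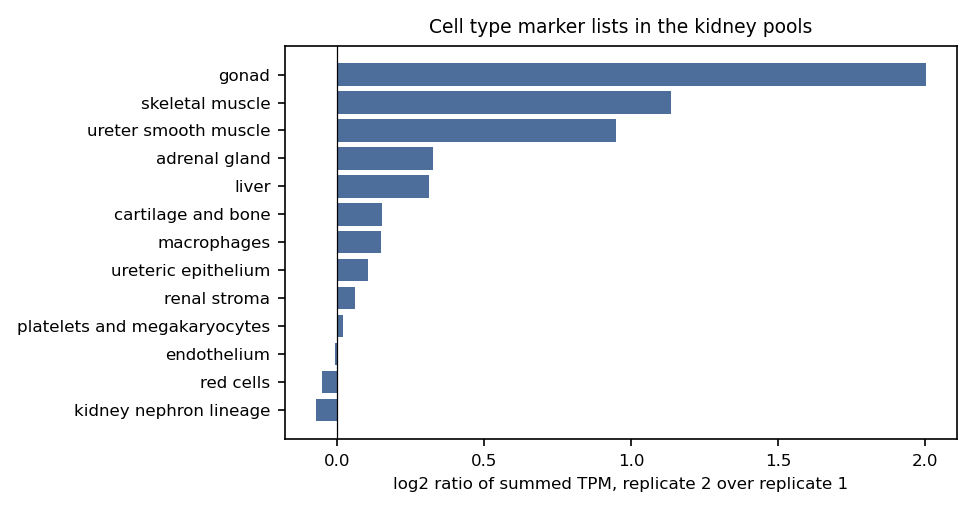
log2 ratio of summed TPM, replicate 2 over replicate 1, for the 13 marker lists of cell types (1 bar per list). Gonad, skeletal muscle and ureter smooth muscle stand furthest to the right, at 2.00, 1.13 and 0.95, and the 4 kidney lists lie between -0.07 and 0.10.

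The rest of the pathway was followed in 8 lists with 75 entries. Their counts at 1 TPM or more in both libraries stand beside 62.2% of all protein-coding genes. Counts near that share, such as 13 of 20, 3 of 5 and 4 of 6 below, are no result about a list. None of 7 further ligands found in the tables reached 1 TPM. Lefty1, an inhibitor of nodal, was closest at 0.96 and 0.98 TPM, and Amh, made by the fetal testis, was at 0.03 and 0.59 TPM. Of 20 further antagonists and binding proteins 13 reached it, led by Fstl1 at 544 and 577 TPM, Emilin1 at 278 and 312 TPM, the proteoglycan Dcn at 177 and 213 TPM and Bgn at 89.95 and 83.6 TPM. Fstl1 was thus above Sostdc1, while Cer1 (0.03 and 0.00 TPM) was the lowest of the list. Of 5 processing proteases 3 reached it, with Pcsk5 at 15.9 and 17.99 TPM and Furin at 11.2 and 11.3 TPM. All 4 activators of latent TGF-beta reached it, with Itgav, an integrin subunit, at 72.7 and 64.7 TPM and Thbs1 at 41.7 and 45.9 TPM. The decoy receptor Bambi was at 15.2 and 16.96 TPM and led a list in which 4 of 6 reached it.

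All 14 Smad regulators were at 1 TPM or more in both libraries, beside 62.2% of all protein-coding genes. The repressors Tgif1, at 76.7 and 75.8 TPM, and Tgif2, at 58.2 and 58.4 TPM, were the highest. Of 9 BMP target genes 8 reached 1 TPM. The Id genes, which block basic helix-loop-helix factors, led with Id3 at 819 and 801 TPM, Id2 at 417 and 378 TPM and Id1 at 123 and 117 TPM, whereas Dlx5 was at 0.18 and 0.39 TPM. Of 9 TGF-beta target genes 7 reached it, with Col1a1 at 712 and 790 TPM, Fn1 at 145 and 142 TPM, Tgfbi at 109 and 112 TPM and Tagln at 55.0 and 107 TPM. Tagln is also a smooth muscle marker, so its difference between the pools stands beside that of Acta2.

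**Figure D5:**
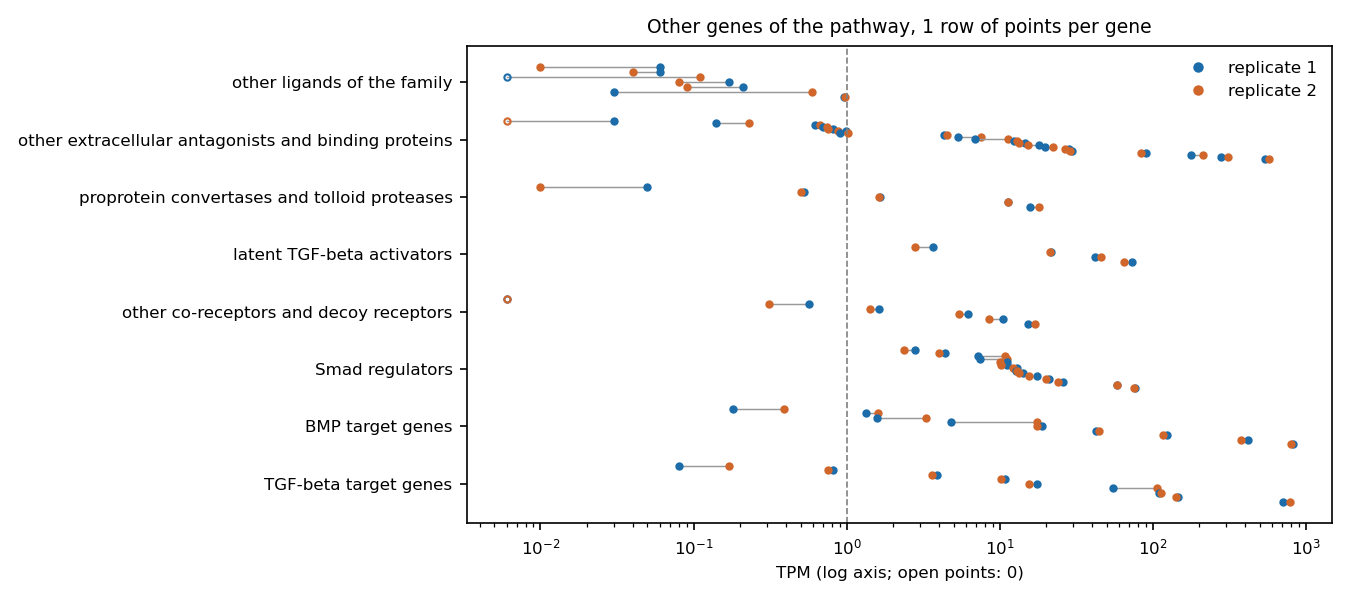
TPM on a log axis of the other pathway genes by list, with replicate 1 in blue, replicate 2 in orange and a line joining the values of a gene; open points at the left are 0 and the dashed line is 1 TPM. All Smad regulators and activators lie right of the line, and all further ligands lie left of it.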

How the data were processed

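RNA-seq of embryonic mouse kidney was deposited as 1 gene table and 1 transcript table per library. Per the deposited notes, values refer to mm10 and annotation M4. No source used here names the aligner, the quantifier or the strandedness. The deposited expected counts are estimated counts that need not be whole. The deposited TPM and FPKM values were scaled by the authors to length, TPM to the same sum per library, spike-ins included. Posterior mean TPM and TPM bounds, also deposited, were read as a non-negative signal, and no source used here gives the level of the bounds. A TPM value can lie outside its bounds. In replicate 1 Twsg1 was at 107.04 TPM, with bounds of 102.3 to 106.5 TPM and a posterior mean of 104.4 TPM. The deposited percent gives each transcript's share within its gene.

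The 59 genes, the lists and the rules were chosen with earlier results of these data known. All 59 genes are accounted for; of each other list up to 4 of the highest and 2 of the lowest genes are named, of marker lists up to 2 and the nearest to a result, and transcripts where the lead is under 60%, differs or is not coding, with preset isoform pairs. A gene counted from 1 TPM in both libraries. Levels, shares and medians were computed with Python 3.11.15, pandas 2.3.3 and numpy 2.4.6, figures with matplotlib 3.10.9. Names, types and coordinates came from GENCODE M21 by stable identifier; 150 of 169 transcripts of the 59 genes had the same length there. Expected counts of mouse genes were rounded, scaled by the TMM method (edgeR 4.0.16 under R 4.3.3), and compared as log2 ratios with a prior count of 2 for genes with a mean of 1 CPM; the calculation was checked on simulated counts with known ratios, which is no test of the pools. DESeq2 1.42.0 size factors, library size, spike-ins (2.82% and 2.08% of counts), no filter, other thresholds, FPKM and posterior means were the alternatives. Depth was 35255968 and 38706236 counts. Of 75 pathway entries only Gdf1 was not matched, and Ctgf was matched through its present symbol. Exons of 15 of the 59 genes overlap those of another gene. Some genes that the naming rule would give are not reported here.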

Additional observations from a re-analysis of the deposited data

How the results depend on the processing

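With 2 libraries of 1 group a sign test could not pass, so values are described only. Groups could not be compared, paired or not, because there is 1 group. Of 65 alternative values 48 stayed within the limits set for the value and 17 moved. For class medians and their differences without 1 replicate, staying was fixed in advance, because each of 2 values lies within 1 SD of their mean. A reversed direction was looked for only under other pseudocounts, and none was found there. The median of the ligand genes was 7.75 TPM over genes of at least 1 TPM only, that of the receptors 11.96 TPM and that of the antagonists 17.06 TPM, since fewer genes enter, and the gap between ligands and receptors is then smaller. In FPKM, a smaller unit here, the receptor, Smad and antagonist medians were 6.94, 12.56 and 2.80. With TPM over mouse genes only, the receptor and Smad medians were 11.32 and 20.52. Over protein-coding transcripts only, chosen after seeing the data, the receptor median was 10.30 TPM. With a pseudocount of 1 the receptor and antagonist medians lay 2.37 and 1.23 above the ligand median, against 2.996 and 1.71. Without either replicate the ligand median ranged from 0.96 to 1.63 TPM, and 43 to 45 genes were at 1 TPM. Other thresholds gave 38 to 54 genes. Scaling to spike-ins moved the median log2 ratio of all genes to 0.43, and there 5 genes were over 2-fold and 14 over 1.5-fold apart, with Bmpr1a at 1.07. Without the filter 8 were over 1.5-fold apart, adding Bmp8b, Gdf6 and Nodal, which have at most 28 counts. For spike-in scaling and for no filter, the share of all genes past these folds was not computed. Those counts are therefore no result about the signalling genes. With 1 CPM required in both libraries, also chosen after seeing the data, 0 genes were over 2-fold and 3 over 1.5-fold apart, because Inhba and Gdf5 leave. At 1.5-fold in place of 2-fold 5 genes passed.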

Other observations

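Among the listed BMP target genes, Id4 and Msx1 differed between the pools, and both were chosen after their values were seen. Id4 was at 4.80 TPM in replicate 1 and 17.42 TPM in replicate 2, a log2 count ratio of 1.85. The highest ratio of the 45 signalling genes that entered was 1.24, for Inhba. That gene had 29 and 77 counts and entered only through replicate 2. Msx1 was at 1.57 and 3.28 TPM, with a ratio of 1.04. The more abundant Id genes were at nearer values, with Id1 at 123 and 117 TPM and Id3 at 819 and 801 TPM. The authors' bounds did not overlap for Id4 or Msx1. The part of neighbouring tissues in these differences was not tested.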
